A study of Mus musculus with 6 samples.

Results

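The genes described here code for the proteins that carry out and steer pre-mRNA splicing, measured in the mouse melanoma line B16.F10. They were picked by gene name: SR proteins and their relatives (Srsf, Tra2a, Tra2b, Srrm1, Srrm2), heterogeneous nuclear ribonucleoproteins (Hnrnp, Ptbp), the U2 auxiliary factor and SF3 genes, the Sm and U1 or U2 small nuclear ribonucleoprotein (snRNP) genes, the LSM genes and the PRPF genes. The rule used no measured value. It found 80 genes with 206 transcripts, of 8513 genes and 15905 transcripts in all. GENCODE names 88 protein-coding genes that match the rule, and 79 of them are in the table. The remaining member, Snrpert, is a processed pseudogene. The RNA came from 3 samples given 3.5 µM simvastatin for 24 h and from 3 untreated control samples of the same cells, all of 1 line labelled wild type. Simvastatin is a statin, which blocks the enzyme that makes mevalonate.

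Splicing removes introns from pre-mRNA on a large machine, the spliceosome, which is built from snRNPs. Sm proteins form a ring on most of the small nuclear RNAs, LSM proteins form a like ring on the U6 RNA, the U2 auxiliary factor and the SF3 complexes mark the acceptor side of the intron, and PRPF proteins act when the machine is put together and activated. SR proteins mostly promote the use of exons they bind, and hnRNP proteins often oppose it. Many SR and hnRNP genes limit their own output by splicing in a poison exon, an exon with an early stop codon, or by leaving out a coding exon. The resulting mRNA is a target of nonsense-mediated decay.

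For 6 of the SR and hnRNP genes, the transcript annotated for decay was set against the coding transcript of highest value in GENCODE release 21 (GRCm38). A stretch in which the paired transcripts differ is shown, and other differences between them are not. Of the genes named below for a share shift of at least 10 points, Srsf6 alone is among these 6. In 5 of them the run starts at the first base of the exon that holds the early stop and ends at that stop codon, which is in capitals. The stretch of Ptbp1 is a coding exon of 34 bases that is left out of the transcript annotated for decay. An exon with an early stop was also found for Srsf4 and Srrm2 and is not printed. The share of decay-annotated transcripts, given below, was higher with simvastatin in the 6 printed genes and in Srrm2, and lower in Srsf4.
Srsf3: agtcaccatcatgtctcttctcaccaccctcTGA
Srsf6: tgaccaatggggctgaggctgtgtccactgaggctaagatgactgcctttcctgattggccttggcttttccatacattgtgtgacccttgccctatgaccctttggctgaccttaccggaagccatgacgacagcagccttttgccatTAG
Tra2a: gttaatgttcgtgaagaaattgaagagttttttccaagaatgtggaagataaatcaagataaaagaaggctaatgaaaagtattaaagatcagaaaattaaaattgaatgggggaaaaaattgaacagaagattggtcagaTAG
Hnrnpl: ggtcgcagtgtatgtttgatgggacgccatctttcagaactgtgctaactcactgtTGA
Hnrnpll: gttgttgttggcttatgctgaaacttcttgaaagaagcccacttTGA
Ptbp1: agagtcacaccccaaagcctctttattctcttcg
The Srsf3 run lies at chr17:29039454-29039487 on the plus strand, in exon 4 of the 7 exons of Srsf3-201, an exon of 456 bases. The Srsf6 run lies at chr2:162932815-162932966 on the plus strand, in exon 3 of the 7 exons of Srsf6-201. The Tra2a run lies at chr6:49252965-49253108 on the minus strand, in exon 2 of the 9 exons of Tra2a-202. In Hnrnpl the run is at chr7:28817335-28817393 on the plus strand, in exon 6 of 13, and in Hnrnpll it is at chr17:80044976-80045022 on the minus strand, in exon 7 of 14. The Ptbp1 exon is exon 9 of the 13 exons of Ptbp1-202, at chr10:79862014-79862047 on the plus strand.

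The authors' deposited table gives 1 value per transcript and treatment group, with no value per sample. The sources used here do not state its unit, so values are mainly set against each other between the groups. No spread can be shown beside them. Sums over transcripts, shares within a gene and rankings by total depend on that unknown unit. Summed over the 206 member transcripts, the values came to 3404 in the simvastatin group and 4529 in the control group, which was 0.989% and 1.15% of the sum of the whole table. That whole sum was 344210 in the simvastatin group and 394749 in the control group, and scaling both to the same total moves every log2 ratio up by 0.198. All 7 melanocyte and melanoma markers looked up were in the table, with summed values of 9365 in the simvastatin group and 6859 in the control group. None of the fibroblast, leukocyte, endothelial or keratinocyte markers was. In RNA from bulk cultures, fewer cells of a type and less RNA per cell cannot be told apart.

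Most splicing factor genes had a lower summed value in the simvastatin group than in the control group, by amounts that were mostly small. The gene total, which is the sum over a gene's transcripts, was lower in 68 of the 80 genes, or 85%, where 48.3% of all gene totals in the table were lower. It was past 1.2-fold lower in 51 genes, or 63.7%, against 29.3% of all gene totals, and past 1.5-fold lower in 14 genes, or 17.5%, against 12.3% of all. Totals past 1.2-fold higher were found in 4 members, or 5%, where the whole table had 30.9%. The median log2 ratio of gene totals, simvastatin over control, was -0.39 over the members and 0.02 over all 8505 genes with a value in both groups. The quartiles were -0.54 and -0.19 for the members, and -0.32 and 0.35 for all genes. Scaled to the same total, the median was -0.19 over the members and 0.22 over all genes, and 60 of the 80 totals were lower, or 75%, where 33.9% of all gene totals were. These are ratios of 1 value to 1 value and carry no test.

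**Figure D1:**
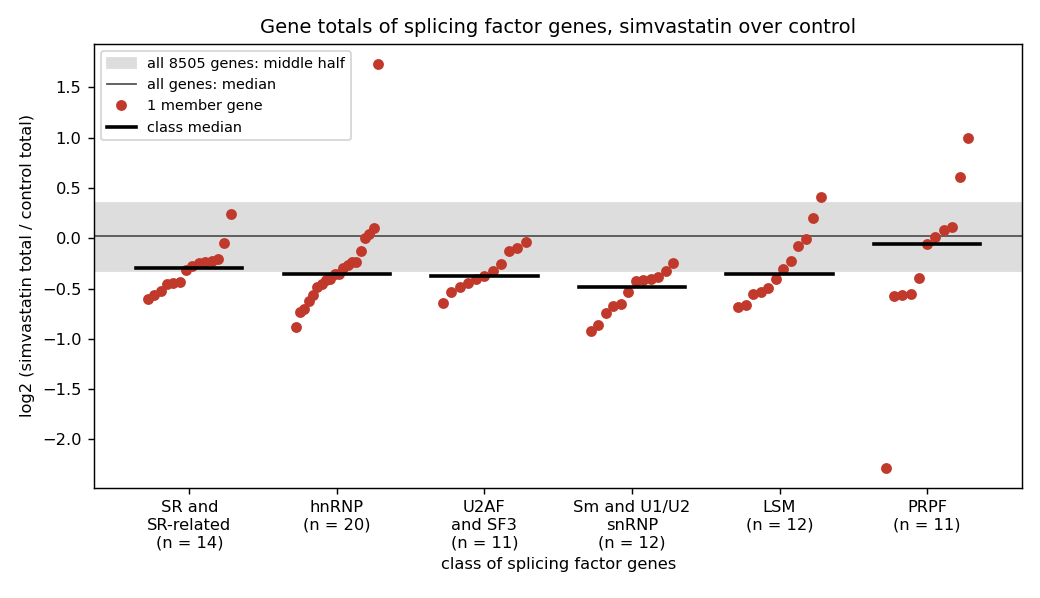
Each point is 1 splicing factor gene, placed by the log2 ratio of its gene total in the simvastatin group over the control group (vertical axis) and by class (horizontal axis); black bars are class medians and the grey band spans the quartiles of all 8505 genes. All 12 Sm and U1 or U2 snRNP genes and all 11 U2AF and SF3 genes lie below 0, while the PRPF genes lie on both sides with a median of -0.05. Values are shown unscaled. Scaled to the same total, 12 of 12 Sm and U1 or U2 snRNP genes and 8 of 11 U2AF and SF3 genes were lower.

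Few single transcripts passed the authors' test. At an adjusted p under 0.05 in the authors' deposited table, 1 of the 206 member transcripts was lower with simvastatin, or 0.485%, where 0.987% of all transcripts were lower, and 0 were higher, where 1.11% were. At an adjusted p under 0.1, 14 members were lower, or 6.8% against 3.76% of all transcripts, and 0 were higher, against 4.02%. At an unadjusted p under 0.05 the counts were 34 lower, or 16.5% against 10.2% of all transcripts, and 3 higher, or 1.46% against 9.42%. The authors' own yes or no call marked 9 members lower, or 4.37%, which equals the 4.37% of the whole table, and 2 higher, or 0.971% against 5.13%. The lower calls of the authors were thus as frequent among members as in the table, and higher calls were less frequent under each of these thresholds; neither contrast was tested.

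Among the proteins of the snRNPs, totals were lower with simvastatin in all 12 genes, the pseudogene Snrpert included, with a median log2 ratio of -0.48. Snrpd1, which codes for 1 of the Sm ring proteins, was the member that passed the test. Its single transcript had a value of 36.46 in the simvastatin group and 58.06 in the control group, a 1.59-fold lower value with an adjusted p of 0.025 in the authors' deposited table. Snrpd1 thus fell with simvastatin. In the comparison that the authors deposited with A375 cells, a human melanoma line, Snrpd1 was the single member among 158 genes. Members are 80 of the 8513 genes of the main table, and how the 158 were chosen was not examined here. The A375 comparison gives a log2 fold change per gene of -0.66 in the mouse cells. That value is of the same B16.F10 comparison and is no second measurement. For A375 cells given 10 µM simvastatin for 24 h it gives a z-score of -2.33 in an outside signature.

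The other 6 ring genes were lower too, though none of their transcripts reached an adjusted p of 0.05. The 7 ring genes of the Sm family had log2 ratios of gene totals from -0.93 to -0.33, with a median of -0.65. Snrpe had a gene total of 48.3 in the simvastatin group and 91.8 in the control group, the lowest ratio of the class, but its coding transcript had an adjusted p of 0.515 in the authors' deposited table. Snrpert, a processed copy of Snrpe on chromosome 2, had 32.5 in the simvastatin group and 38.58 in the control group, and reads that fit both copies could be split between them. Snrpg-201 had 11.95 in the simvastatin group and 20.06 in the control group, a call of the authors with an adjusted p of 0.129. Snrpd3-201 had 9.75 in the simvastatin group and 14.5 in the control group, with an adjusted p of 0.072 in the authors' deposited table, and Snrpd2-201 had 28.54 and 41.35 in the same order of groups, with an adjusted p of 0.076. Snrpb, which codes for another ring protein, had 103.52 in the simvastatin group and 138.47 in the control group, with an adjusted p of 0.316. Snrpf had 21.64 in the simvastatin group and 27.12 in the control group, with an adjusted p of 0.178.

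The proteins that are particular to the U1 or the U2 snRNP followed the same direction in their totals. Snrpa1 (chr7:66059003-66074587), a U2 snRNP protein, had 13.88 in the simvastatin group and 25.25 in the control group, a 1.82-fold lower value called by the authors with an adjusted p of 0.053. Snrpb2, its partner in the U2 snRNP, had a gene total of 11.8 in the simvastatin group and 15.5 in the control group. The U1 proteins Snrpa and Snrpc had totals of 27.9 and 32.1 in the simvastatin group, against 37.5 and 42.5 in the control group. None of the transcripts of Snrpb2, Snrpa or Snrpc reached an adjusted p of 0.05 in the authors' deposited table.

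All 11 U2AF and SF3 genes had lower totals, with a median log2 ratio of -0.38. Scaled to the same total, 8 of 11 were lower, with a median of -0.18. Of their 17 transcripts 0 passed an adjusted p of 0.05, where 0.987% of all transcripts were lower and 1.11% higher. U2af1 codes for the small subunit of the U2 auxiliary factor, which reads the end of the intron, and its transcript U2af1-201 had 32.65 in the simvastatin group and 44.77 in the control group, with an adjusted p of 0.053 in the authors' deposited table. The large subunit gene U2af2 had a total of 55.7 in the simvastatin group and 87.2 in the control group, over 6 transcripts of which the lowest adjusted p was 0.275. One U2af2 transcript annotated for decay was listed at 0 in the simvastatin group and at 1.54 in the control group. Sf3b3, a subunit of the SF3B complex that grips the branch point, had 49.41 in the simvastatin group and 64.13 in the control group, with an adjusted p of 0.053. Sf3a3 had 16.52 in the simvastatin group and 23.93 in the control group, with an adjusted p of 0.095 in the authors' deposited table. The smallest differences were those of Sf3a1, with 31.8 in the simvastatin group and 32.54 in the control group, and of Sf3b2, with 58.52 and 62.67 in the same order. Sf3b1, the largest SF3B subunit and the target of splicing inhibitors, had 77.63 in the simvastatin group and 92.42 in the control group, with an adjusted p of 0.343 in the authors' deposited table.

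The LSM genes fall into those of the U6 ring and the rest, and were described by this division without a test. The 7 genes Lsm2 to Lsm8, whose products form the ring on U6, had lower totals in 7 of 7, with a median log2 ratio of -0.54 and a range from -0.68 to -0.30. The other 5 LSM genes, whose products are not part of that ring, had a median of -0.01 with 3 of 5 lower. Lsm4 had a total of 25.9 in the simvastatin group and 41.5 in the control group, Lsm5 had 11.3 and 17.9, and Lsm3 had 59.1 and 86.6 in the same order of groups. Lsm10, a part of the ring on the U7 RNA that processes histone mRNA, had a total of 10.4 in the simvastatin group and 7.89 in the control group. Lsm12 had 36.8 in the simvastatin group and 32.06 in the control group, with an adjusted p of 0.761 in the authors' deposited table. The single LSM call of the authors was a transcript of Lsm7 assembled from the reads, with 2.81 in the simvastatin group and 5.09 in the control group and an adjusted p of 0.077. The annotated Lsm7-202 went the other way, with 3.29 in the simvastatin group and 2.44 in the control group, an adjusted p of 0.825.

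The PRPF genes had totals on both sides: 6 of 11 were lower, with a median log2 ratio of -0.05, and the median was 0.15 after scaling to the same total. Prpf8, the scaffold of the catalytic core, had a total of 75.3 in the simvastatin group and 78.1 in the control group, and Prpf6, which bridges the snRNPs of the tri-snRNP, had 26.3 and 26.1 in the same order. Prpf19, a ubiquitin ligase of the spliceosome, had 26.5 in the simvastatin group and 39.4 in the control group. Prpf38a, needed for activation of the spliceosome, had 14.02 in the simvastatin group and 20.73 in the control group, with an adjusted p of 0.09 in the authors' deposited table. Prpf18 had 11.49 in the simvastatin group and 10.67 in the control group, and Prpf4b, a kinase, had 9.79 and 9.25 in the same order. The farthest ratios of the class belonged to genes of low value. Prpf3 had 0.69 in the simvastatin group and 3.36 in the control group, and Prpf39 had 4.75 and 2.37 in that order, and the authors' deposited table lists adjusted p-values of 0.437 and 0.646.

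**Figure D2:**
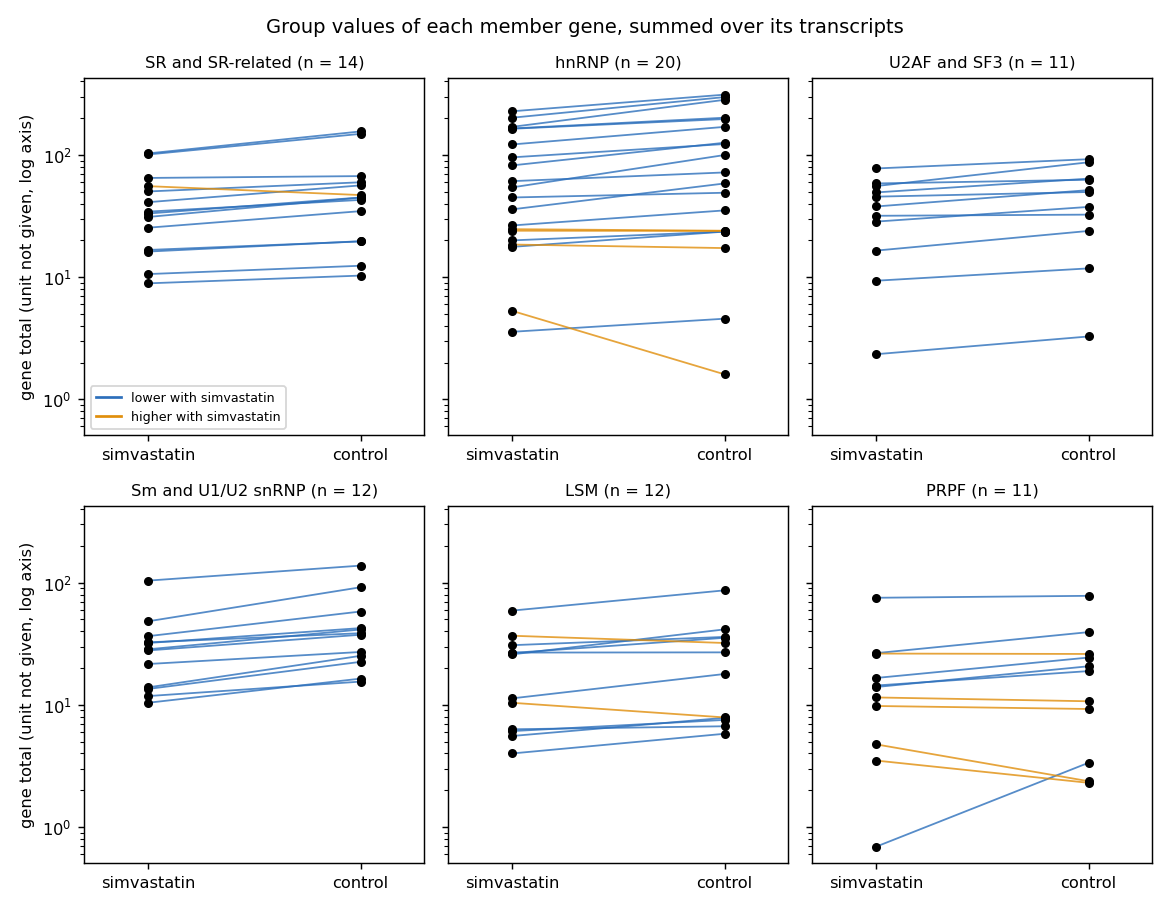
Gene totals of the 80 splicing factor genes in the simvastatin group (left points) and the control group (right points) of each panel, on a log axis, in the deposited values whose unit is not given; each line is 1 gene, blue where the simvastatin total is lower and orange where it is higher. Lines run upward to the control side in 68 genes, and the steepest lines belong to Prpf3 and Hnrnpa3, whose totals are under 6 in both groups.

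SR genes were lower in 13 of 14 totals, with a median log2 ratio of -0.30, and the 10 Srsf genes were lower in 10 of 10, with a median of -0.44. After scaling to the same total, Srsf6 turned to 0.15 and the other 9 Srsf genes stayed below 0. None of the 49 SR transcripts passed an adjusted p of 0.05, where 0.987% of all transcripts were lower and 1.11% higher. At an adjusted p under 0.1, 3 were lower, or 6.12% against 3.76% of all transcripts. Srsf2 and Srsf3 code for small SR proteins, and their totals were 103 and 101 in the simvastatin group, against 156 and 149 in the control group. The coding transcript Srsf2-201 had 91.34 in the simvastatin group and 136.31 in the control group, with an adjusted p of 0.081 in the authors' deposited table. For Srsf3-202 the values were 79.79 in the simvastatin group and 126.11 in the control group, with an adjusted p of 0.325.

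Among the relatives of the SR proteins, Tra2b-204, of a gene whose protein binds exonic enhancers rich in GA repeats, had 17.18 in the simvastatin group and 21.64 in the control group, with an adjusted p of 0.075 in the authors' deposited table. Of the Srsf genes, Srsf10-205 had 9.38 in the simvastatin group and 10.96 in the control group, with an adjusted p of 0.091. Srrm2, a large scaffold protein of nuclear speckles, was the SR gene with a higher total, 55.6 in the simvastatin group and 47.0 in the control group, and its transcript Srrm2-209 with a retained intron had 16.12 and 11.01 in the same order, with an adjusted p of 0.166.

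Of the 20 hnRNP genes, 16 had lower totals, with a median log2 ratio of -0.36. Hnrnpa1 and Hnrnpa2b1, which code for abundant repressors of exon use, had totals of 170 and 228 in the simvastatin group, against 283 and 312 in the control group. Hnrnpab had 202 in the simvastatin group and 298 in the control group, and Hnrnpa0 had 54.3 and 100 in the same order, the lowest ratio of the class. Hnrnpul2 had 18.46 in the simvastatin group and 17.26 in the control group. Hnrnpa3 was higher at low values, with a total of 5.30 in the simvastatin group and 1.60 in the control group. The authors called 7 of the 84 hnRNP transcripts, and none of these passed an adjusted p of 0.05. Of the calls, 5 were lower, or 5.95% against 4.37% of all transcripts. The other 2 were higher, or 2.38% against 5.13%.

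The called hnRNP transcripts belong to 4 genes. Hnrnpa2b1-201 (gene at chr6:51460932-51469894) had 47.06 in the simvastatin group and 79.73 in the control group, with an adjusted p of 0.063 in the authors' deposited table. Hnrnpl-209, the main coding form of a protein that binds CA repeats, had 51.08 in the simvastatin group and 84.3 in the control group, with an adjusted p of 0.168. Hnrnpll-205, of its close relative, had 8.02 in the simvastatin group and 12.82 in the control group, with an adjusted p of 0.161. Hnrnph1, whose protein binds runs of G, had calls in both directions. An assembled transcript of it had 37.08 in the simvastatin group and 56.21 in the control group (adjusted p of 0.128 in the authors' deposited table), and Hnrnph1-218 had 3.26 and 5.94 in the same order (adjusted p of 0.09). Hnrnph1-213 had 4.76 in the simvastatin group and 2.86 in the control group, and Hnrnph1-207 had 4 and 2.32, for which the authors' deposited table lists adjusted p-values of 0.153 and 0.177. These higher forms held 5.79% and 4.87% of the gene's summed value in the simvastatin group, against 2.26% and 1.84% in the control group.

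How the value of a gene was split over its transcripts was compared for the SR and hnRNP genes with at least 2 transcripts. A transcript's share moved by 10 percentage points or more in 9 of 30 genes, or 30%, where 53.4% of all 3978 such genes in the table moved as far. The count was 2 of 12 SR genes and 7 of 18 hnRNP genes. So large shifts were no more frequent in these genes than in the table, and no transcript with such a shift had an adjusted p under 0.05. With a gene total of at least 5 in both groups, 8 of 29 genes moved, or 27.6%, against 50.5% of all.

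The largest of these shifts was in Hnrnpa1 (chr15:103240432-103246692). Its coding transcript Hnrnpa1-202 had 119.06 in the simvastatin group and 77.71 in the control group, and held 69.9% of the gene's value with simvastatin and 27.5% in control. The other 6 transcripts were all lower with simvastatin. Hnrnpa1-204 and Hnrnpa1-203, both annotated for decay, together held 19.2% in the simvastatin group and 44.9% in the control group. The gene total and its most abundant coding form thus differed in opposite directions. The adjusted p of Hnrnpa1-202 was 0.741 in the authors' deposited table, and those of the other transcripts ranged upward from 0.396, so no transcript of the gene passed the test.

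In Srsf6 the coding form and the poison exon form printed above differed in opposite directions. Srsf6-203, the coding form, had 45.2 in the simvastatin group and 57.87 in the control group, or 69.6% and 86.1% of the gene's value, with an adjusted p of 0.136 in the authors' deposited table. Srsf6-201, which holds the exon with the early TAG stop, had 13.78 in the simvastatin group and 4.91 in the control group, or 21.2% and 7.31%, with an adjusted p of 0.511. In Srsf11 an assembled transcript held 27% of the value in the simvastatin group and 2.19% in the control group, while the coding Srsf11-202 held 30.4% and 52% in the same order. The adjusted p-values of both Srsf11 forms were 0.604 and 0.597 in the authors' deposited table.

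Among the hnRNP genes, Hnrnpdl-203, a processed transcript without a coding frame, held 27.4% in the simvastatin group and 2.66% in the control group, while the coding Hnrnpdl-202 held 35.2% and 63.2%. Their adjusted p-values were 0.345 and 0.533 in the authors' deposited table. Hnrnpr-204 held 35.3% of its gene's value in the simvastatin group and 7.54% in the control group. Hnrnpu-209, annotated for decay, held 20.9% in the simvastatin group and 10.3% in the control group. In Hnrnpc an assembled form held 38.1% with simvastatin and 22.2% in control, and in Hnrnph1 the processed form Hnrnph1-217 held 29.8% and 40.2%. The lowest adjusted p of these 4 forms was 0.291, that of Hnrnph1-217 in the authors' deposited table.

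**Figure D3:**
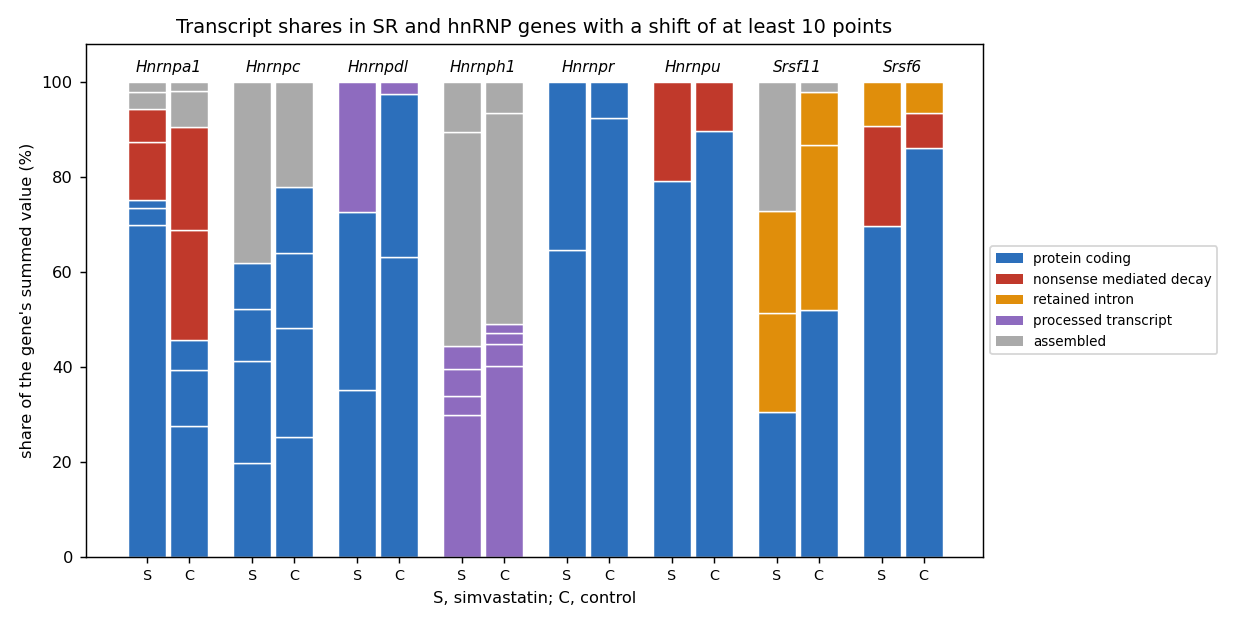
Stacked bars show how the summed value of each SR or hnRNP gene with a share shift of at least 10 points and a total of at least 5 in both groups is divided among its transcripts, in percent, in the simvastatin group (S) and the control group (C), coloured by the annotated transcript type. The coding share (blue) of Srsf6 is 69.6% with simvastatin and 86.1% in control, while the largest coding form of Hnrnpa1 holds 69.9% and 27.5%.

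Shares of transcripts annotated for nonsense-mediated decay were compared in genes that list one beside a coding transcript. The share was higher with simvastatin in 9 of 11 SR and hnRNP genes, and in 10 of 13 splicing factor genes, or 76.9%. Of the 344 such genes of the table, 54.7% had a higher share. The median difference was 2.07 percentage points over the 13 genes and 0.55 over the 344. Among SR genes the share was higher in 5 of 6. Srsf2 had 8.72% in the simvastatin group and 3.09% in the control group, Srsf3 had 8.24% and 4.86%, and Srrm2 had 8.46% and 6.39% in the same order of groups. The Srsf3 form is the one with the TGA stop in the exon printed above, and its value was 8.31 in the simvastatin group and 7.22 in the control group, while the coding form was lower. Srsf4 went the other way, with 12% in the simvastatin group and 18% in the control group.

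Among hnRNP genes the share was higher in 4 of 5, with Hnrnpa1 the exception. Hnrnpll-203, which holds the exon of 83 bases with the TGA stop, held 54.7% of the gene's value in the simvastatin group and 45.6% in the control group. Hnrnpl-213 held 12.4% and 11.4%, and Ptbp1-201, the form without the exon of 34 bases, held 12.3% and 12% in the same order. Tra2a-202 held 27.6% in the simvastatin group and 27.2% in the control group. The last 3 differ by about 1 point or less. The lowest adjusted p of a decay-annotated member transcript was 0.471 in the authors' deposited table, that of Hnrnpa1-203. Over SR genes, the median log2 ratio was 0.43 for the 6 decay-annotated transcripts and -0.44 for the 20 coding ones, while over hnRNP genes it was -0.34 for the 6 decay-annotated and -0.38 for the 46 coding ones. Over all members it was -0.19 for 14 decay-annotated and -0.40 for 115 coding transcripts, and over all transcripts of the table it was 0.05 for 439 decay-annotated and 0.04 for 9003 coding ones.

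**Figure D4:**
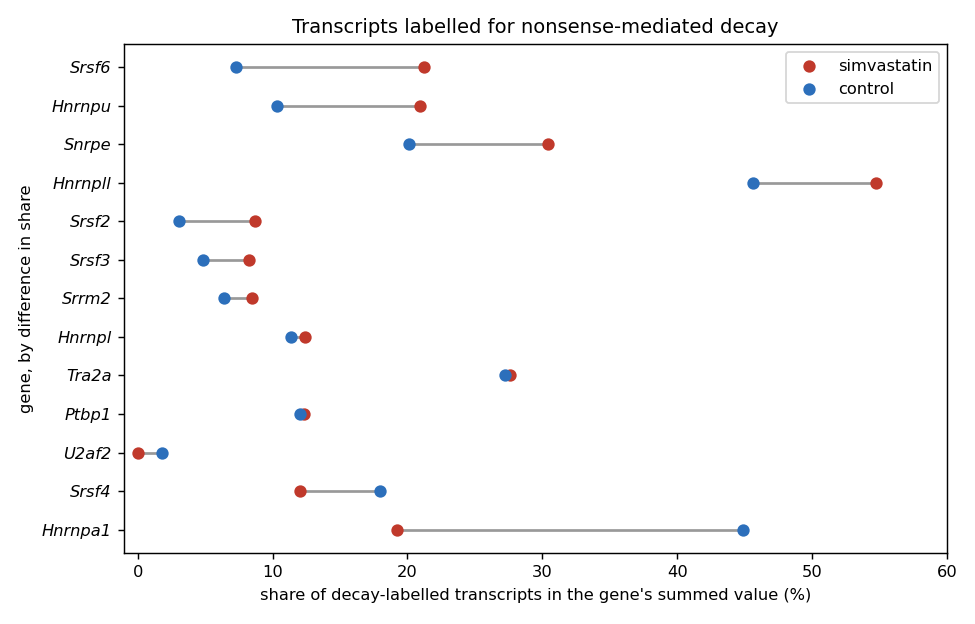
Share of decay-annotated transcripts in the gene's summed value (horizontal axis, percent) in the simvastatin group (red) and the control group (blue) for the 13 splicing factor genes that list one beside a coding transcript, ordered by the difference. The red point lies to the right in 10 genes, by 13.9 points in Srsf6, and to the left in U2af2, in Srsf4 and, with a difference of -25.7 points, in Hnrnpa1.

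Transcripts annotated with a retained intron were compared in the same way, in genes that also list a coding transcript. They showed no common direction over all members, with a higher share in 8 of 16 genes against 51.9% of 751 such genes of the table. Within the SR and hnRNP genes it was 8 of 11. Tra2a had 41.5% of its value in 2 such forms in the simvastatin group and 29.7% in the control group, and Hnrnpl had 33.4% and 29.3% in the same order. Among the snRNP and PRPF genes the share was lower, with 13.3% in the simvastatin group and 23.8% in the control group for Snrpb2, and 20.7% and 28.4% for Prpf31. In Prpf31 the direction of the total depends on which forms are summed. The assembled form had 3.49 in the simvastatin group and 9.36 in the control group, and 2 annotated forms were lower too, while Prpf31-201 had 7.5 in the simvastatin group and 1.48 in the control group, with an adjusted p of 0.616 in the authors' deposited table.

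Other genes of the splicing pathway were read from lists. Of 56 further spliceosome genes in the table, 46 had lower totals, with a median log2 ratio of -0.22. Of these, 2 had a transcript that fell at an adjusted p under 0.05, where 1.81% of all genes in the table have one, and 0 had one that rose, where 2.03% do. They are Eftud2, a GTPase of the U5 snRNP, with 38.8 in the simvastatin group and 49.01 in the control group (adjusted p of 0.049 in the authors' deposited table), and Txnl4a, a small U5 protein, with 7.95 and 9.01 (adjusted p of 0.043). Among 39 other RNA-binding regulators 1 gene passed: an assembled transcript of Rbmx fell to 5.89 in the simvastatin group, against 14 in the control group (adjusted p of 0.042 in the authors' deposited table). Their median was -0.11, and Pcbp1 and Pcbp2 had totals of 168 and 226 in the simvastatin group, against 157 and 229 in the control group. Totals of the other spliceosome genes Puf60 and Dhx15 were 67.5 and 59.7 in the simvastatin group, against 74.3 and 79 in the control group.

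The helpers of the snRNPs and of the spliced mRNA lay on the lower side, with no transcript past an adjusted p of 0.05. The snRNP assembly list, whose products load Sm proteins onto RNA, had lower totals in 11 of 12 genes and a median of -0.47. Clns1a and Strap of that list had totals of 35.6 and 110 in the simvastatin group, against 48.3 and 142 in the control group. Exon junction complex genes had lower totals in 9 of 9, with a median of -0.45, and Magoh and Rnps1 had 42.5 and 47.7 in the simvastatin group, against 59.5 and 65.1 in the control group. At an unadjusted p under 0.05, a lower transcript was found in 8 of these 12 assembly genes and 7 of these 9 exon junction genes, where 17.5% of all genes in the table have one. In the other lists it was found in 12 of 56 further spliceosome genes, 13 of 39 RNA-binding regulators, 2 of 7 SR protein kinases and 0 of 5 decay factors. The 7 SR protein kinases, which phosphorylate SR proteins, had a median of 0.18 with 2 of 7 lower. Clk1 had 22.7 in the simvastatin group and 17.6 in the control group, and Srpk1 had 37.7 and 43.9 in the same order. The 5 decay factors in the table had a median of 0.05 with 2 of 5 lower, and those 2, Upf1 and Smg5, had totals of 41.9 and 28.6 in the simvastatin group, against 47.6 and 31.5 in the control group. After scaling to the same total each of these medians is higher by 0.198, as it is for all genes.

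In the enrichment table that the authors deposited, the term RNA splicing was listed for the lower transcripts with 18 genes, a fold enrichment of 3.31 and an adjusted p of 0.00153. Of its 18 genes, 6 are members here: Hnrnpa2b1, Hnrnph1, Lsm7, Snrpa1, Snrpd1 and Snrpg. That term was drawn from the same calls and is not independent of them.

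Promoters are shown for Snrpg and Sf3b3 as examples that hold both CCGGAAG and CCAAT, read on either strand. They are not typical, since most member windows lack CCGGAAG. Whether these letters are linked to the shared direction of the members was not tested. RefSeq promoters (GRCm38.p6, the 250 bases before the start) were found for 66 of the 80 members, in 86 windows, and windows of 1 gene can overlap. The letters searched on both strands are in capitals: CCGGAAG, the core bound by ETS factors, and CCAAT, which reads ATTGG from the other strand.
Snrpg: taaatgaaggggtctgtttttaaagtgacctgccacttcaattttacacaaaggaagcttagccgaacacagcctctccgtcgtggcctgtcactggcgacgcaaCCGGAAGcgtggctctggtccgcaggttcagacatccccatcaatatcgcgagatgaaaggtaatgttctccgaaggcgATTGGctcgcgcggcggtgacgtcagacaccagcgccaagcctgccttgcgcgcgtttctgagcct
Sf3b3: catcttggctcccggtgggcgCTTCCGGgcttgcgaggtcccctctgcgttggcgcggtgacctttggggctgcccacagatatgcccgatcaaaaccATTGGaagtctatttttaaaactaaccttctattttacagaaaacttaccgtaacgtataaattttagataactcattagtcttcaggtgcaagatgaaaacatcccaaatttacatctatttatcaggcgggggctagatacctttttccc
The Snrpg window is chr6:86371290-86371539 on the plus strand. GENCODE starts the gene at 86371304, so most of this window lies within the gene as annotated there. The Sf3b3 window is chr8:110846804-110847053 on the minus strand and holds the ETS core as read from the other strand. Both hold ATTGG.

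The ETS core was found in 26.7% of the member windows, in 15.1% of 7877 windows of genes in the table, and in 6.91% of all 32851 windows. By class it was in 7 of 10 U2AF and SF3, 6 of 18 SR, 3 of 10 Sm and U1 or U2 snRNP, 3 of 11 PRPF, 3 of 26 hnRNP and 1 of 11 LSM windows. The CCAAT letters were found in 46.5% of member windows, 35.5% of those of genes in the table and 33.8% of all, and by class in 17 of 26 hnRNP, 6 of 11 PRPF, 5 of 10 U2AF and SF3, 4 of 11 LSM, 3 of 10 Sm and U1 or U2 snRNP and 5 of 18 SR windows. The E2F letters TTTCCCGC or TTTGGCGC were in 7 of 86 member windows, or 8.14%, in 2.51% of those of genes in the table and in 1.3% of all. By class they were in 3 of 18 SR, 2 of 26 hnRNP and 2 of 10 U2AF and SF3 windows. They were in 0 of 10 Sm and U1 or U2 snRNP, 0 of 11 LSM and 0 of 11 PRPF windows. A match describes the letters in the window and says nothing of whether a factor binds.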

How the data were processed

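The samples were 3 cultures of B16.F10 cells with simvastatin and 3 without treatment, assigned by title. Per the labels' protocols, strand-specific libraries were prepared from total RNA. The submitters' processing notes name HISAT2 2.0.5, StringTie and the builds GRCm38 and mm10. How reads were counted, filtered and tested is not stated in the sources used here.

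The authors' deposited table holds 1 signal value per transcript and group, a signed linear fold, a p-value and an adjusted p-value printed to 3 decimals, and a yes or no call, per the file headers. The authors' comparison with A375 cells holds a log2 fold change and a z-score, which is a score of an outside A375 signature that they copied in. Their deposited enrichment table holds term counts and fold enrichments. With 0 columns per sample, depth and spread are unknown and no test was refitted. The series text calls the samples biological replicates. Since the test is not stated, whether the authors' p-values measure the spread between cultures is not known. Folds against a group at 0 were not formed.

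Transcript values were summed per gene, and log2 ratios of gene totals and shares of transcripts were computed in Python 3.11.15 with pandas 2.3.3, numpy 2.4.6 and matplotlib 3.10.9, with steps tested on simulated data. Transcript types and coordinates came from GENCODE mouse release 21. Ratios use no pseudocount. Named were members past an adjusted p of 0.05 or called by the authors, in each class the 3 of highest total and the 2 farthest ratios each way with a total of at least 5, SR and hnRNP genes with a share shift of 10 points or more, and for each other list the genes past 0.05 and the 2 of highest total. Further members are named to account for their class and were chosen after their values were seen. Members, lists and alternatives were chosen with earlier results of these data known. A count of protein sequence repeats planned for the SR and hnRNP genes was not analysed here. The values of 1 further member gene, which is counted in its class, are not reported here.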

Additional observations from a re-analysis of the deposited data

How the results depend on the processing

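The 1 lower and 0 higher member transcripts at an adjusted p under 0.05 became 9 and 2 by the authors' call, 14 and 0 at an adjusted p under 0.1, and 34 and 3 at an unadjusted p under 0.05. For the other genes of the splicing pathway, 3 lower and 0 higher became 42 and 4 at an unadjusted p under 0.05. Their lists hold 56, 39, 12, 9, 7 and 5 genes in the table. Of all genes in the table, 17.5% have a lower and 15.8% a higher transcript at that unadjusted threshold. At an adjusted p under 0.05 these shares are 1.81% and 2.03%. With values scaled to the same total, the median log2 ratio of gene totals was 0.22 for all genes, -0.19 for members, -0.10 for SR, -0.16 for hnRNP, -0.18 for U2AF and SF3, -0.28 for Sm and U1 or U2 snRNP, -0.16 for LSM and 0.15 for PRPF genes, which is the shift of 0.198 between the group sums. Of the 80 genes, 8 turned to higher (Hnrnpul1, Lsm1, Lsm14a, Prpf8, Sf3a1, Sf3b2, Sf3b6 and Srsf6). With the transcript of highest mean only, the hnRNP median was -0.52 and the PRPF median 0.07, and 5 genes changed direction, Hnrnpa1, Hnrnpc, Hnrnpdl, Prpf8 and Ptbp3. Among totals of at least 5 the PRPF median was -0.22. With Ensembl transcripts only, which leaves 75 of the 80 genes, 3 genes changed direction, among them Prpf31 and Lsm7, whose total reversed to 0.43 without the assembled transcript that the authors called. A pseudocount of 1 changed no direction. The count of SR and hnRNP genes with a share shift was 8 to 10 under its alternatives. Apart from what the settings themselves leave out, the cause was not tested. No replicate could be left out. No paired analysis was possible because the columns hold group values and no values per sample. Depth sets no stated limit, since no counts were given.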
